A study of Marchantia polymorpha and Arabidopsis thaliana and Oryza sativa Japonica Group with 116 samples.

Results

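Untreated Arabidopsis thaliana seedlings of gpa1-3, a mutant of the canonical G-protein α subunit gene, were compared with seedlings labelled agb1-2, a mutant of the β subunit gene. The comparison rests on 3 gpa1-3 libraries and 3 agb1-2 libraries taken at 0 h of the salt series, which are 6 of the 44 Arabidopsis libraries and of the 116 libraries of the series. Both groups were seedlings 7 days old, grown in liquid Murashige and Skoog medium of reduced strength under continuous light, with neither NaCl nor tunicamycin. The same genotypes were also sampled after 2 h and 24 h in 100 mM NaCl (3 libraries each) and after 4 h in 0.3 µg/mL tunicamycin, a blocker of protein N-glycosylation (2 libraries each). The series holds no untreated Arabidopsis libraries at these later times, so treatment and elapsed time cannot be told apart. Levels in the wild type Col-0 and in xlg1,2,3, a line mutated in the extra-large Gα-like proteins, are given at 0 h as points of orientation, with 3 libraries each. The labels name 1 allele per single mutant and call the libraries biological replicates without saying whether they came from separate cultures. The p-values below thus measure the spread between libraries, which the gene tests estimated over all 44 Arabidopsis libraries.

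Heterotrimeric G proteins consist of a Gα subunit that binds guanine nucleotides and an obligate Gβγ dimer, and they pass signals from membrane receptors to targets inside the cell. In Arabidopsis GPA1 encodes the canonical Gα and AGB1 the Gβ, AGG1, AGG2 and AGG3 encode Gγ subunits, and XLG1, XLG2 and XLG3 encode extra-large proteins with a Gα-like domain that also work with Gβγ. Losing Gα leaves a Gβγ dimer that may be free of its partner, while losing Gβ removes the dimer from both GPA1 and the extra-large proteins. The subunits are known for roles in stomatal patterning, hormone responses, cell division and immunity, and the Gα and Gβ mutants are known to differ in direction for stomatal density.

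The gpa1-3 libraries held 36525026, 34621166 and 15302243 counts, and the agb1-2 libraries held 39011129, 33074743 and 14135238. Replicate 3 of either genotype was thus sequenced less deeply than replicates 1 and 2, and its values for weak genes are less precise. Between 21709 and 22885 genes had a count in each of the 6 libraries. Each library was most similar to another library of its own genotype (6 of 6), and the first principal component, with 55.8% of the variance, separated gpa1-3 from agb1-2. Replicate 3 stood apart from replicates 1 and 2 along the second component, with 16.7%. Summed levels of the photosystem, antenna and Rubisco list did not differ beyond the library spread (80875 ± 5399 CPM in gpa1-3 and 80728 ± 1558 CPM in agb1-2, SD, n = 3 each, exact two-sided permutation p = 1.0). The root tissue list summed to 164 ± 3.21 CPM in gpa1-3 and 186 ± 23.4 CPM in agb1-2 (SD, n = 3 each, exact two-sided permutation p = 0.4), so leaf and root markers were present in both groups. With 3 libraries against 3 the smallest p this exact test can give is 0.1.

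Levels are given as normalised CPM (counts scaled to a common library total), which are not scaled to gene length and so are not compared between genes. Fold changes are log2 of gpa1-3 over agb1-2 with their standard error (SE), and a gene was called where its adjusted p (edgeR's quasi-likelihood F-test, Benjamini-Hochberg adjustment over all 20858 genes tested) was below 0.05. GPA1, at chr2:11196996-11201102 (+ strand) in TAIR10.1, had 15.5, 17.3 and 16.2 CPM in the gpa1-3 libraries, against 91.5, 96.5 and 96.5 CPM in the agb1-2 libraries, a log2 fold change of -2.54 ± 0.09 (adjusted p = 1.1e-20). All 3 gpa1-3 libraries lay far below all 3 agb1-2 libraries, and Col-0 had 119 ± 5.62 CPM (SD, n = 3). AGB1, at chr4:16477031-16479620 (- strand) in TAIR10.1, had 142, 131 and 133 CPM in gpa1-3, against 126, 131 and 159 CPM in agb1-2 and 129, 124 and 136 CPM in Col-0, with a log2 fold change of -0.03 ± 0.11 (adjusted p = 0.88). The gpa1-3 and agb1-2 libraries overlapped for AGB1, so its gene total does not check the agb1-2 label at 0 h, and agb1-2 here stands for the libraries so labelled. Under salt AGB1 did separate the groups, at 109 ± 1.05 CPM in gpa1-3, against 57.8 ± 1.47 CPM in agb1-2 after 2 h (SD, n = 3 each, adjusted p = 1.8e-06). After 24 h its log2 fold change was 0.61 ± 0.11 (adjusted p = 2.7e-04).

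Among the 15 G-protein genes tested, 2 were called higher and 2 lower in gpa1-3, where 9.13% and 7.35% of all genes tested were. Besides GPA1, XLG3 was lower, with 37.3, 38.2 and 34.6 CPM in gpa1-3, against 54.4, 53.6 and 45.8 CPM in agb1-2 (log2 fold change -0.48 ± 0.10, adjusted p = 9.2e-04). RGS1, the regulator that speeds GTP hydrolysis by GPA1, was higher, with 16.7, 18.6 and 17.7 CPM in gpa1-3, against 12.8, 14.3 and 15.4 CPM in agb1-2 (log2 fold change 0.32 ± 0.08, adjusted p = 0.0049). PRN1, a pirin known to interact with GPA1, had 34.6, 24.6 and 34.5 CPM in gpa1-3, against 7.8, 7.8 and 1.17 CPM in agb1-2 (log2 fold change 2.37 ± 0.39, adjusted p = 5.8e-05). For all 3 genes the gpa1-3 libraries did not overlap the agb1-2 libraries, although replicate 3 of agb1-2 was far below the other two agb1-2 libraries for PRN1. The call of RGS1 was lost without replicate 1 of agb1-2 (adjusted p = 0.059).

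Over all genes, 3438 of 20858 (16.5%) were called at 0 h, of which 1904 (9.13%) were higher and 1534 (7.35%) lower in gpa1-3. A change of at least 2-fold was seen in 388 genes called higher (1.86%) and 378 called lower (1.81%). The median log2 fold change of all genes was 0.02. In 3366 of the 3438 called genes the 3 gpa1-3 libraries did not overlap the 3 agb1-2 libraries, and over all tested genes this held for 38.6%. With only the compared groups fitted, 1971 were called higher and 2026 lower, so the larger side turned (49.3% of the calls higher, against 55.4%). In the main fit the stomatal lineage and cell division lists held calls in the lower direction only, and the abscisic acid and jasmonate lists in the higher direction only. With only the compared groups fitted, 1 abscisic acid member was called lower.

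**Figure D1:**
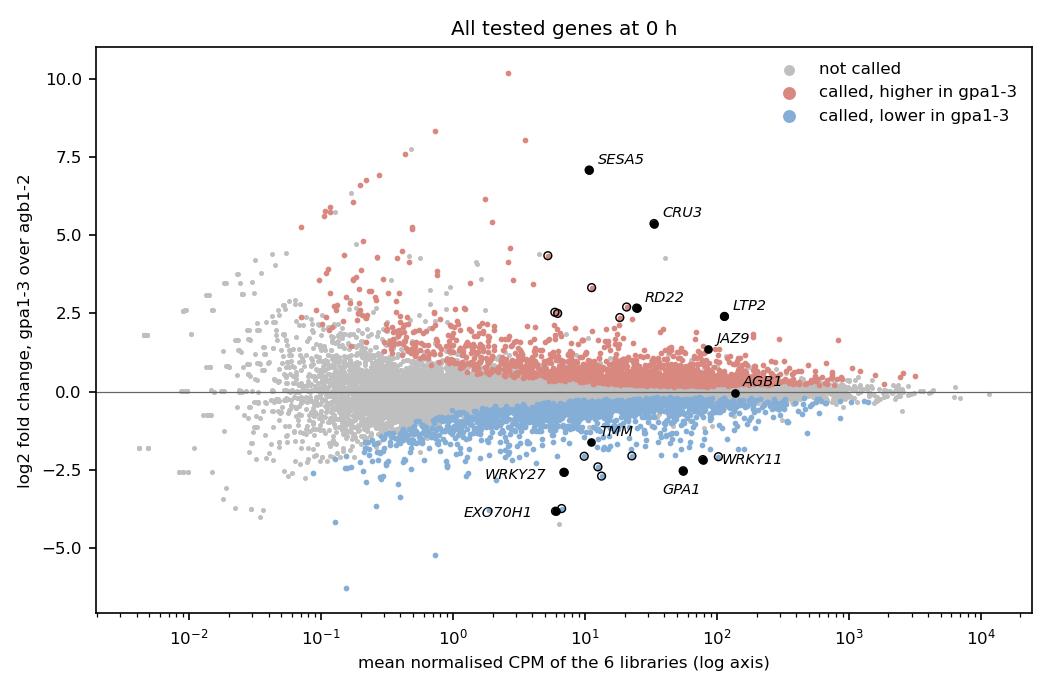
Each point is a gene, placed by its mean normalised CPM over the 6 libraries (log axis) and its log2 fold change of gpa1-3 over agb1-2 at 0 h, with called genes coloured by direction. Black points with names and open rings mark genes named in the text, and GPA1 lies among the falls at -2.54 and AGB1 close to 0 at -0.03.

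**Figure D2:**
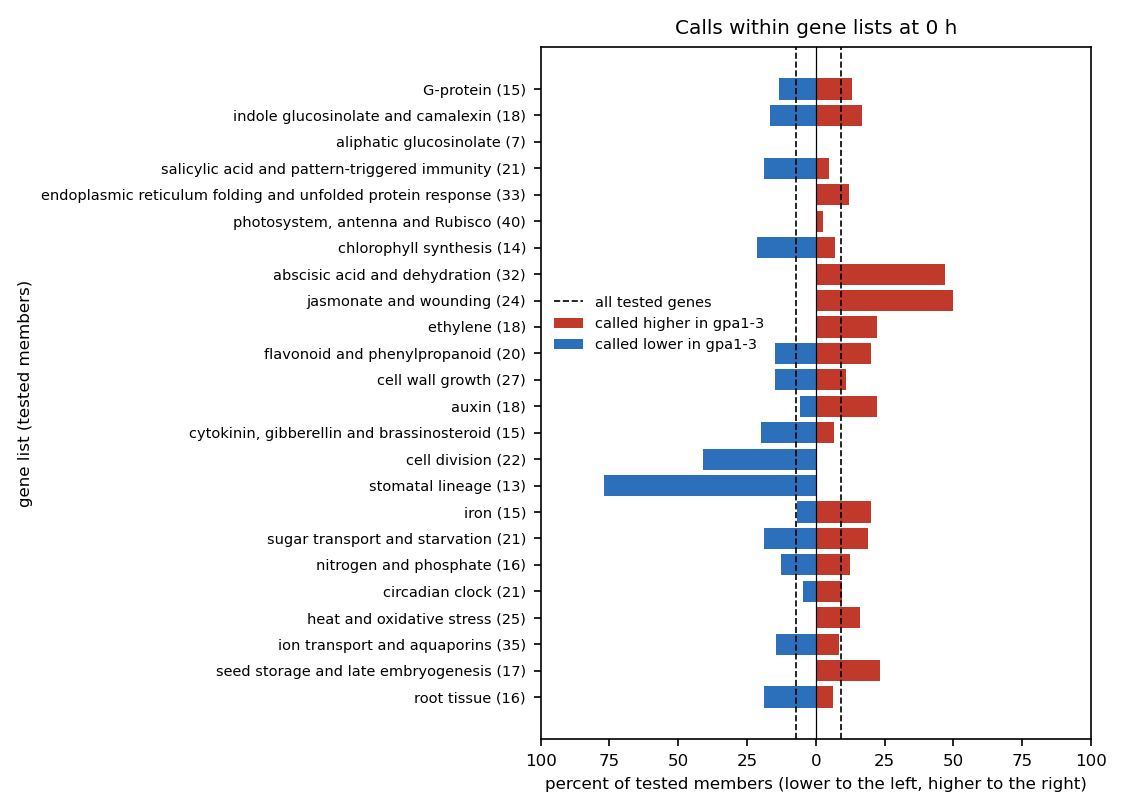
Bars show, for each gene list, the percentage of tested members called higher in gpa1-3 (right) or lower in gpa1-3 (left) at 0 h, with the number tested in brackets, and dashed lines show the same share over all tested genes (9.13% and 7.35%). The stomatal lineage list has the longest bar on the lower side (10 of 13) and the jasmonate list the longest on the higher side (12 of 24).

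Stomatal lineage genes were lower in gpa1-3. Of the 13 tested members 10 were called lower and 0 higher, against 7.35% and 9.13% of all genes, the log2 fold changes of all 13 were negative, and their median was -1.23. Summed over the list, the level was 59.8 ± 4.84 CPM in gpa1-3 and 99.6 ± 1.101 CPM in agb1-2 (SD, n = 3 each, exact two-sided permutation p = 0.1, the smallest possible), against 56.9 to 59.7 CPM in the Col-0 libraries and 122 to 133 CPM in the xlg1,2,3 libraries. In whole seedlings, fewer cells of a type and less RNA per cell cannot be told apart.

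The stomatal lineage begins with asymmetric divisions driven by basic helix-loop-helix factors, and secreted peptides read by leucine-rich repeat receptors space the stomata apart. Among the receptors, TMM had 4.72, 5.18 and 6.68 CPM in gpa1-3, against 17.38, 16.7 and 16 CPM in agb1-2, 3.08-fold higher in agb1-2 (log2 fold change -1.62 ± 0.26, adjusted p = 3.9e-05). Every agb1-2 library was above every gpa1-3 library, and the mean was 4.84 ± 0.733 CPM in Col-0 and 24.1 ± 1.96 CPM in xlg1,2,3 (SD, n = 3 each). The receptor kinases ERL1, ERL2 and ER, which partner TMM, were all called lower. ERL1 had 0.921, 1.8 and 1.37 CPM in gpa1-3, against 3.35, 3.23 and 3.58 CPM in agb1-2 (log2 fold change -1.31 ± 0.25, adjusted p = 4.4e-04). ERL2 had 3.93, 4.35 and 3.68 CPM in gpa1-3, against 6.78, 6.83 and 8.6 CPM in agb1-2 (log2 fold change -0.87 ± 0.20, adjusted p = 0.0024). ER differed less, with a log2 fold change of -0.60 ± 0.14 (adjusted p = 0.0028). None of these receptor kinases overlapped between the groups.

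The peptide EPF2, which limits entry into the lineage, had 0.732, 0.916 and 1.12 CPM in gpa1-3, against 2.58, 2.02 and 3.45 CPM in agb1-2 (log2 fold change -1.54 ± 0.39, adjusted p = 0.0055). STOMAGEN, a peptide with the opposite action, was not called at -0.60 ± 0.27 (adjusted p = 0.13), and EPF1 was too weak to test. SDD1, a subtilase that restrains stomatal formation, had 0.461, 0.916 and 0.874 CPM in gpa1-3, against 3.0, 3.26 and 2.74 CPM in agb1-2 (log2 fold change -2.04 ± 0.32, adjusted p = 3.0e-05). The 3 gpa1-3 libraries of SDD1 all stayed below 1 CPM while the agb1-2 libraries were near 3 CPM. The polarity proteins that orient the asymmetric division followed the same direction. BASL had 0.298, 0.229 and 0.312 CPM in gpa1-3, against 1.65, 1.11 and 1.76 CPM in agb1-2 (log2 fold change -2.42 ± 0.42, adjusted p = 1.3e-04). POLAR had 1.65, 1.66 and 2.0 CPM in gpa1-3, against 4.45, 4.31 and 3.65 CPM in agb1-2 (log2 fold change -1.25 ± 0.21, adjusted p = 7.6e-05). Neither gene overlapped between the groups.

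Of the transcription factors, SPCH, which starts the lineage, had 2.11, 3.09 and 2.56 CPM in gpa1-3, against 3.8, 4.28 and 5.87 CPM in agb1-2 (log2 fold change -0.82 ± 0.21, adjusted p = 0.0067). Its partner SCRM2 had 10.3, 11.3 and 10.7 CPM in gpa1-3, against 15.2, 15.9 and 16.6 CPM in agb1-2 (log2 fold change -0.56 ± 0.16, adjusted p = 0.012). MUTE, which ends the division phase, was near the detection limit and was not called (-1.23 ± 0.60, adjusted p = 0.17). FAMA, which acts at the final division of the guard mother cell, overlapped between the groups at 0 h, with 17.5, 22.3 and 19 CPM in gpa1-3, against 22.2, 22.1 and 19.3 CPM in agb1-2 (log2 fold change -0.12 ± 0.18, adjusted p = 0.71). FAMA was called lower after 2 h (-0.74 ± 0.18, adjusted p = 0.0057) and 24 h (-0.88 ± 0.19, adjusted p = 0.0011) in NaCl. The list as a whole held 12 members called lower after 2 h, 6 after 24 h and 8 under tunicamycin, each with 0 called higher, where 5.8%, 6.95% and 3.73% of all genes were called lower. With replicates 1 and 2 alone 6 were called lower at 0 h. The calls of SPCH and SCRM2 were lost without gpa1-3 replicate 1 (adjusted p = 0.058 and 0.051), and that of SPCH also without agb1-2 replicate 3 (0.056).

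The 250 bases upstream of the annotated start (TAIR10.1 RefSeq, 5′ to 3′) are shown for EPF2 and BASL, a peptide and a polarity gene that were lower together, with the E box CANNTG in capitals. E boxes are the kind of sequence that basic helix-loop-helix factors bind. EPF2 lies at chr1:12472618-12472867 (+ strand) and BASL at chr5:24489837-24490086 (- strand) in these windows.
EPF2: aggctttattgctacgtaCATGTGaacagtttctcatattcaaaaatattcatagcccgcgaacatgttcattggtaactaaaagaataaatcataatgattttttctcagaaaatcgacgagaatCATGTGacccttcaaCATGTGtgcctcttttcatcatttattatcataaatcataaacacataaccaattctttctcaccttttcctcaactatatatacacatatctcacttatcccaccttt
BASL: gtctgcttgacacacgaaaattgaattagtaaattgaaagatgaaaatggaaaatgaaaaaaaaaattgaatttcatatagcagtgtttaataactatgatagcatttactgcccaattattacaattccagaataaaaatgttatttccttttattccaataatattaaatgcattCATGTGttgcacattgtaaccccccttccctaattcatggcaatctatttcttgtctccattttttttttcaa
EPF2 held 3 matches and BASL 1, while TMM held 0. An E box was found in 8 of the 14 list members, against 55.3% of 27437 promoters of the same length, so its share among the members was close to the background. CANNTG reads the same on both strands and includes the G box CACGTG.

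**Figure D3:**
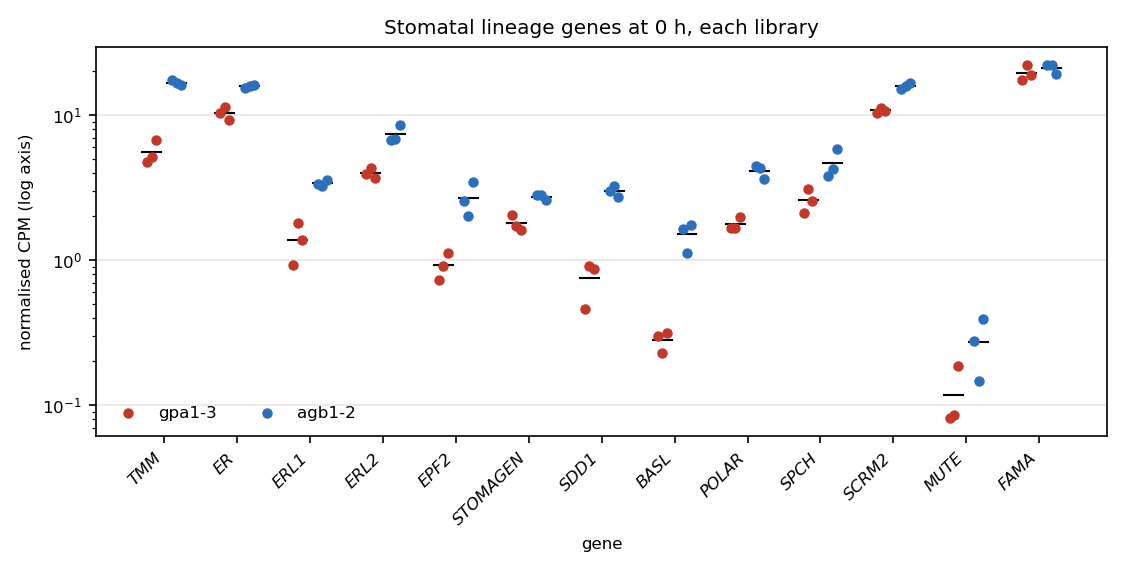
Normalised CPM (log axis) of the stomatal lineage genes in the single libraries at 0 h, with gpa1-3 and agb1-2 in separate colours. For TMM the 3 gpa1-3 points lie between 4.72 and 6.68 CPM and the 3 agb1-2 points between 16.0 and 17.38 CPM.

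Cell division genes likewise held calls on the lower side only. Of 22 tested members 9 were called lower and 0 higher, against 7.35% and 9.13% of all genes, and 13 were not called. The median log2 fold change was -0.50, and that of 6 members was positive. CYCD3;1, a D-type cyclin of the entry into the cycle, had 3.74, 3.78 and 3.43 CPM in gpa1-3, against 6.33, 7.13 and 6.39 CPM in agb1-2 (log2 fold change -0.85 ± 0.14, adjusted p = 8.8e-05). CYCB1;2, a mitotic cyclin, had 0.732, 0.63 and 1.19 CPM in gpa1-3, against 1.75, 2.38 and 1.89 CPM in agb1-2 (log2 fold change -1.31 ± 0.29, adjusted p = 0.0016). CDC20.1, an activator of the anaphase-promoting complex, had 2.14, 1.92 and 1.81 CPM in gpa1-3, against 3.75, 4.43 and 4.3 CPM in agb1-2 (log2 fold change -1.07 ± 0.23, adjusted p = 0.0013). HIK, a kinesin of cytokinesis, had a log2 fold change of -1.14 ± 0.25 (adjusted p = 0.0020). In all 4 genes the groups did not overlap, although replicate 3 of agb1-2 came close to gpa1-3 for HIK. The summed level was 106 ± 3.44 CPM in gpa1-3 and 122 ± 4.11 CPM in agb1-2 (SD, n = 3 each, exact two-sided permutation p = 0.1). This sum was 81.9 to 89.9 CPM in the Col-0 libraries, below every gpa1-3 library, and 100 to 113 CPM in the xlg1,2,3 libraries. After 2 h in NaCl 6 members were called lower, after 24 h 0 and under tunicamycin 4, where 5.8%, 6.95% and 3.73% of all genes were. Without gpa1-3 replicate 1 the count at 0 h fell to 5.

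Jasmonate genes held calls on the higher side only in gpa1-3. Jasmonate is a lipid hormone of wounding and defence, and JAZ proteins repress its target genes and are themselves rapidly induced by it. Of the 24 tested members of the jasmonate and wounding list 12 were called higher and 0 lower, against 9.13% and 7.35% of all genes, the log2 fold changes of 22 were positive, and the median was 0.99. JAZ9 had 137, 120.0 and 117 CPM in gpa1-3, against 58.2, 53.5 and 33.1 CPM in agb1-2 (log2 fold change 1.36 ± 0.14, adjusted p = 3.1e-08). JAZ3 had 53.7, 54.5 and 53.7 CPM in gpa1-3, against 26.4, 31.7 and 20.5 CPM in agb1-2 (log2 fold change 1.03 ± 0.14, adjusted p = 3.8e-06). JAZ2 had 68.2, 62.3 and 61.1 CPM in gpa1-3, against 33.3, 32.3 and 20.3 CPM in agb1-2 (log2 fold change 1.15 ± 0.22, adjusted p = 5.2e-04). The gpa1-3 libraries were above every agb1-2 library for these 3 genes, and agb1-2 replicate 3 was the lowest of the 6 each time. OPR3, the reductase of jasmonate synthesis, had 48.1, 34.4 and 40.6 CPM in gpa1-3, against 21.5, 20.8 and 12.8 CPM in agb1-2 (log2 fold change 1.14 ± 0.25, adjusted p = 0.0016). Of the 9 loci of the JAZ family that were tested, 6 were called higher and 0 lower.

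The summed jasmonate level was 2149, 1827 and 1902 CPM in the gpa1-3 libraries, against 1339, 1294 and 776 CPM in the agb1-2 libraries (exact two-sided permutation p = 0.1, n = 3 each). This sum was 1319.8 to 1440.5 CPM in the Col-0 libraries and 2006.7 to 3832.1 CPM in the xlg1,2,3 libraries. The count of members called higher fell to 4 without agb1-2 replicate 3, to 7 without gpa1-3 replicate 1 and to 5 with replicates 1 and 2 alone. After 2 h in NaCl 3 members were called higher, after 24 h 2 and under tunicamycin 5, where 6.59%, 8.58% and 5.91% of all genes were. JAZ9 was not called after 2 h, at -0.18 ± 0.14 (adjusted p = 0.44), and the test of the change of the difference over 0, 2 and 24 h gave an adjusted p of 6.1e-07. This change was called for 7.82% of all genes.

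Upstream windows of 250 bases are shown for JAZ9, JAZ3 and JAZ2 (TAIR10.1 RefSeq, 5′ to 3′), with the G box CACGTG, to which MYC factors of the jasmonate pathway bind, in capitals. They span chr1:26654279-26654528 (+ strand), chr3:6119457-6119706 (+ strand) and chr1:28150447-28150696 (- strand).
JAZ9: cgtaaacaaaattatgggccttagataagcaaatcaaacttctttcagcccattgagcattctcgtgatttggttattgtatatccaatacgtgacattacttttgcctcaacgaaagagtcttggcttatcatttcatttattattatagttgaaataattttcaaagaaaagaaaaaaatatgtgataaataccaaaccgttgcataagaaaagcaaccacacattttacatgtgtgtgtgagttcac
JAZ3: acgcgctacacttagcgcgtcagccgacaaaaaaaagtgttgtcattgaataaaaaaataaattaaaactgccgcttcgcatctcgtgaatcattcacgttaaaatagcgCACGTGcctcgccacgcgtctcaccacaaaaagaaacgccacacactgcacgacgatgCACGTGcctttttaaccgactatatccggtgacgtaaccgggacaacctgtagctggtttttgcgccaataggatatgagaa
JAZ2: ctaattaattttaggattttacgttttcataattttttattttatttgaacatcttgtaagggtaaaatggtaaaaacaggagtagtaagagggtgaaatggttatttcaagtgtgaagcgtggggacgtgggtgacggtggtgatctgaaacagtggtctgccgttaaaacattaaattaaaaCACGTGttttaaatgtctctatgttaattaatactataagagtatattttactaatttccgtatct
JAZ3 held 2 G boxes, JAZ2 held 1 and JAZ9 held 0. Of the 27 members of the jasmonate list 5 held one, against 6.49% of all 27437 promoters. CACGTG reads the same on both strands.

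Of the 32 tested genes of abscisic acid and dehydration 15 were called higher in gpa1-3 and 0 lower, against 9.13% and 7.35% of all genes. The log2 fold changes of 29 members were positive, and the median was 0.55. With replicates 1 and 2 alone 8 were called higher. RD22, a dehydration-responsive gene, had 48.8, 38.3 and 40.8 CPM in gpa1-3, against 6.98, 5.98 and 7.23 CPM in agb1-2, 6.37-fold higher (log2 fold change 2.67 ± 0.25, adjusted p = 5.1e-09). RD29A, a marker of osmotic and cold stress, had 296, 279 and 297 CPM in gpa1-3, against 95.9, 94.8 and 66.3 CPM in agb1-2 (log2 fold change 1.76 ± 0.26, adjusted p = 1.1e-05). KIN2, a cold- and abscisic-acid-induced gene, had 19.5, 11.6 and 13.4 CPM in gpa1-3, against 4.93, 5.37 and 3.58 CPM in agb1-2 (log2 fold change 1.66 ± 0.29, adjusted p = 1.7e-04). HAB2, a phosphatase that damps abscisic acid signalling, had 27.7, 28.8 and 25.2 CPM in gpa1-3, against 20.11, 20.3 and 15.6 CPM in agb1-2 (log2 fold change 0.54 ± 0.11, adjusted p = 6.5e-04). No library of one group overlapped the other for these 4 genes. Col-0 lay nearer to agb1-2 for RD22 (9.52 ± 1.62 CPM) and between the groups for RD29A (175 ± 88.7 CPM, SD, n = 3 each).

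The summed abscisic acid level was 3347 ± 178 CPM in gpa1-3 and 2090 ± 125 CPM in agb1-2 (SD, n = 3 each, exact two-sided permutation p = 0.1). It was 2965 to 3324 CPM in the Col-0 libraries and 3135 to 3469 CPM in the xlg1,2,3 libraries. In NaCl 1 member was called higher after 2 h and 4 after 24 h (12.5% of the list), shares below and near those of all genes (6.59% and 8.58%). Under tunicamycin 22 were called higher and 3 lower, against 5.91% and 3.73% of all genes, with a median log2 fold change of 1.09. RD22 had 387 ± 71.2 CPM in gpa1-3 and 379 ± 36 CPM in agb1-2 after 2 h in NaCl (SD, n = 3 each). The difference was then within its error, at 0.03 ± 0.22 (adjusted p = 0.96).

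In the ethylene list 4 of 18 members (22.2%) were called higher and 0 lower, against 9.13% and 7.35% of all genes. RAP2.6, an ethylene response factor that also answers jasmonate and abscisic acid, had 129, 98.4 and 101.3 CPM in gpa1-3, against 32.2, 31.1 and 22.9 CPM in agb1-2 (log2 fold change 1.92 ± 0.15, adjusted p = 7.3e-11). In the auxin list 4 of 18 (22.2%) were likewise called higher, and 1 (5.56%) lower. In both lists the 4 became 2 with replicates 1 and 2 alone, and the 1 lower auxin gene became 3 with only the compared groups fitted and 0 without gpa1-3 replicate 1 or 2 or agb1-2 replicate 1. Of the 4 auxin genes called higher, 3 were GH3 enzymes that conjugate auxin to amino acids. GH3.3 had 249.8, 316 and 322 CPM in gpa1-3, against 97, 83.5 and 65.4 CPM in agb1-2 (log2 fold change 1.85 ± 0.39, adjusted p = 0.0013). GH3.6 had 109.7, 112 and 115 CPM in gpa1-3, against 45.1, 53.5 and 43.6 CPM in agb1-2 (log2 fold change 1.24 ± 0.16, adjusted p = 1.1e-06). GH3.5 had a log2 fold change of 0.77 ± 0.16 (adjusted p = 0.0011). All 3 genes were separated without overlap. After 24 h in NaCl GH3.6 was still higher (1.68 ± 0.17, adjusted p = 8.0e-08) while GH3.3 was lower (-1.55 ± 0.40, adjusted p = 0.0064). Of the 18 auxin members 5 were called higher and 0 lower after 2 h in NaCl, against 6.59% and 5.8% of all genes. After 24 h 1 was called higher and 8 lower, against 8.58% and 6.95%, and the median log2 fold change was -0.61. BR6OX2, an oxidase of brassinosteroid synthesis, was the 1 member called higher of the 15 tested for cytokinin, gibberellin and brassinosteroid (log2 fold change 0.86 ± 0.18, adjusted p = 0.0012), with 3 called lower (1 without gpa1-3 replicate 2).

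**Figure D4:**
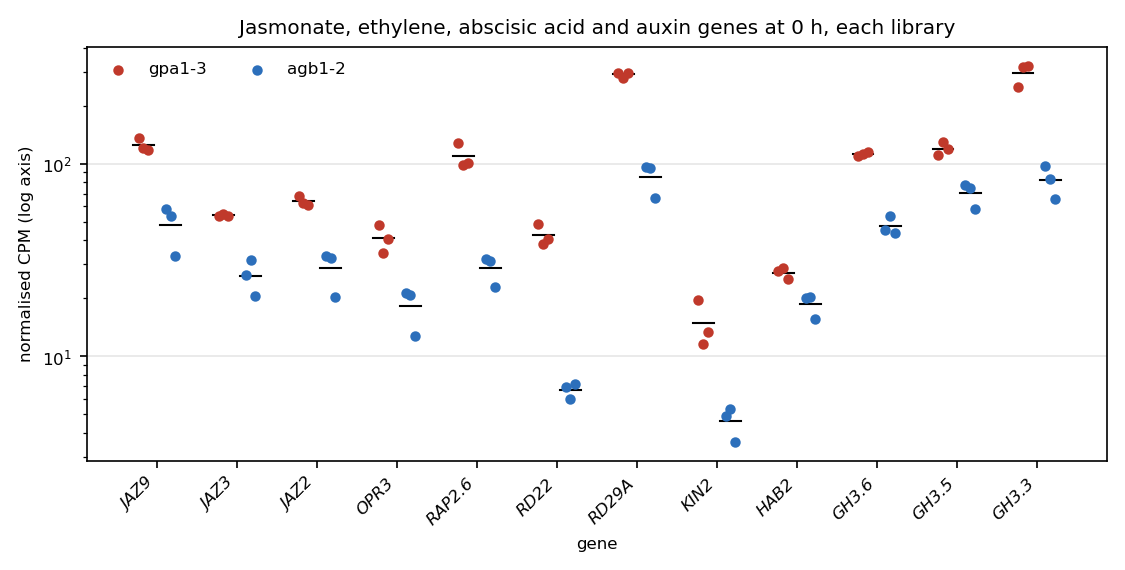
Normalised CPM (log axis) of hormone genes in the single libraries at 0 h, with gpa1-3 and agb1-2 in separate colours. For JAZ9 the 3 gpa1-3 points lie between 117 and 137 CPM and the 3 agb1-2 points between 33.1 and 58.2 CPM, with agb1-2 replicate 3 the lowest.

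The 10 largest rises in gpa1-3 were taken among called genes with at least 10 CPM on average in the higher group and no overlap of libraries. They included PRN1 and RD22, given above, and a pair of seed storage genes. SESA5, a seed storage albumin, had 28.3, 20.12 and 15.9 CPM in gpa1-3, against 0.325, 0.0293 and 0 CPM in agb1-2 (adjusted p = 0.016). CRU3, a cruciferin, had 68.1, 41.9 and 86.5 CPM in gpa1-3, against 3.5, 0.293 and 0.13 CPM in agb1-2 (log2 fold change 5.38 ± 1.89, adjusted p = 0.047). BGLU19, a β-glucosidase outside that list, had 12.8, 10.9 and 6.43 CPM in gpa1-3, against 1.08, 0.088 and 0.0652 CPM in agb1-2 (log2 fold change 4.35 ± 1.26, adjusted p = 0.016). The agb1-2 libraries were far below the gpa1-3 libraries for these 3 genes, as was Col-0, while xlg1,2,3 had 17.9, 0.0581 and 5.63 CPM of SESA5. Without agb1-2 replicate 1 the log2 fold changes became 9.77 for SESA5, 8.06 for CRU3 and 6.90 for BGLU19. SESA5 lost its call without any 1 of the agb1-2 libraries (adjusted p = 0.052 to 0.070), and BGLU19 without agb1-2 replicate 2 or 3 (0.080 and 0.058). The 17 tested seed genes held 4 called higher (23.5%) and 0 lower, against 9.13% and 7.35% of all genes. Their sum was 218, 177 and 266 CPM in gpa1-3, against 61.6, 38.3 and 45.1 CPM in agb1-2, 26.6 to 32.1 CPM in Col-0 and 29.4 to 174 CPM in xlg1,2,3. The number called was 11 with only the compared groups fitted, 7 with the replicate block, 2 without gpa1-3 replicate 2, 1 without agb1-2 replicate 1 and 0 without agb1-2 replicate 2 or 3, and CRU3 lost its call whichever library was left out.

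The other 5 of the largest rises were held by genes of varied function. AT4G36430, a peroxidase family protein, had 18.16, 24.4 and 18.7 CPM in gpa1-3, against 1.95, 1.94 and 2.35 CPM in agb1-2, 10-fold higher (log2 fold change 3.33 ± 0.26, adjusted p = 7.4e-11). RNS1, a secreted ribonuclease induced by wounding and phosphate shortage, had 32.8, 36.1 and 39.8 CPM in gpa1-3, against 5.63, 7.92 and 2.15 CPM in agb1-2 (log2 fold change 2.71 ± 0.45, adjusted p = 7.7e-05). LTP2, a lipid transfer protein of the cuticle, had 181, 186 and 209 CPM in gpa1-3, against 35.8, 39.5 and 33.4 CPM in agb1-2 (log2 fold change 2.405 ± 0.30, adjusted p = 1.1e-06). The gpa1-3 libraries were the high ones throughout, as the rule of choice requires. Col-0 lay near them for LTP2 (227 ± 30.3 CPM) and for AT4G36430 (19.1 ± 1.44 CPM, SD, n = 3 each). GRP5, a glycine-rich protein, had 11.6, 10.7 and 9.24 CPM in gpa1-3, against 1.6, 1.91 and 2.28 CPM in agb1-2 (log2 fold change 2.50 ± 0.29, adjusted p = 3.2e-07). AT1G67105, for which the annotation gives no product, had 8.43, 13.1 and 8.8 CPM in gpa1-3, against 1.53, 1.97 and 1.76 CPM in agb1-2 (log2 fold change 2.54 ± 0.36, adjusted p = 7.1e-06). AT1G67105 differed by similar amounts after 2 h (2.19) and 24 h (2.36) in NaCl and under tunicamycin (2.41).

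Besides GPA1, the 10 largest falls in gpa1-3 included 3 WRKY transcription factors, a family of defence regulators that bind the W box. WRKY27 had 2.01, 2.15 and 1.69 CPM in gpa1-3, against 12, 12 and 11.8 CPM in agb1-2, 6.0-fold higher in agb1-2 (log2 fold change -2.59 ± 0.19, adjusted p = 2.9e-11). WRKY11 had 29.7, 29.1 and 26.1 CPM in gpa1-3, against 138, 136 and 111 CPM in agb1-2 (log2 fold change -2.18 ± 0.22, adjusted p = 2.4e-08). WRKY17, a close relative of WRKY11, had 9.76, 8.1 and 8.43 CPM in gpa1-3, against 38.2, 36.2 and 35.6 CPM in agb1-2 (log2 fold change -2.06 ± 0.20, adjusted p = 1.9e-08). The falls were chosen by the same rule as the rises, which allows no overlap of libraries at 0 h. By that choice the agb1-2 libraries were above every gpa1-3 library in all 3 genes. For WRKY17 Col-0 lay nearer to agb1-2 and xlg1,2,3 nearer to gpa1-3, at 32 ± 4.73 CPM and 12.7 ± 3.66 CPM (SD, n = 3 each). Of 54 tested WRKY loci 8 were called higher and 13 lower at 0 h, against 9.13% and 7.35% of all genes, and the median was -0.27.

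Upstream windows of 250 bases are shown for the 3 WRKY genes (TAIR10.1 RefSeq, 5′ to 3′), with the W box core TTGAC, or GTCAA on the other strand, in capitals. They span chr4:15291935-15292184 (- strand), chr2:10439470-10439719 (- strand) and chr5:21410519-21410768 (+ strand).
WRKY11: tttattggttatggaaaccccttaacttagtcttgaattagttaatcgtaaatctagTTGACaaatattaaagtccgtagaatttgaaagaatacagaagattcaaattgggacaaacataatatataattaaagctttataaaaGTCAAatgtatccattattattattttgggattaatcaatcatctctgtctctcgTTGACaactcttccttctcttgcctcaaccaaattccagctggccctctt
WRKY17: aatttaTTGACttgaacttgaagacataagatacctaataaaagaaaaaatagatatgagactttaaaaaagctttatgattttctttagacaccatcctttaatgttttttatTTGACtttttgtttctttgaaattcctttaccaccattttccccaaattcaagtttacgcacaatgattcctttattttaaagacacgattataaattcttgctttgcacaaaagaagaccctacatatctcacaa
WRKY27: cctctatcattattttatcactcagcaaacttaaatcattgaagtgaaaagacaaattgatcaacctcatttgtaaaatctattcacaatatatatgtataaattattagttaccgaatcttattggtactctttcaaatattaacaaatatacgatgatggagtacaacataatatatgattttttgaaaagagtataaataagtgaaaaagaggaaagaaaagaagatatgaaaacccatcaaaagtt
WRKY11 held 3 W box cores, WRKY17 held 2 and WRKY27 held 0. Of the 10 genes with the largest falls 7 held at least 1, against 44.9% of 27437 promoters, and they averaged 1.7 matches, against 0.633 over all promoters. These 10 genes include GPA1, the gene mutated in gpa1-3, and were picked by their change at 0 h. The difference from all promoters was not tested.

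The remaining falls were spread over several protein families. EXO70H1, a subunit of the exocyst that tethers secretory vesicles, had 0.948, 0.715 and 0.624 CPM in gpa1-3, against 11.7, 12.3 and 9.71 CPM in agb1-2 (log2 fold change -3.83 ± 0.42, adjusted p = 9.6e-08). MLO12, a membrane protein of the MLO family linked to powdery mildew susceptibility, had 47.4, 39.4 and 30.5 CPM in gpa1-3, against 173, 191 and 135 CPM in agb1-2 (log2 fold change -2.09 ± 0.23, adjusted p = 1.5e-07). AT2G17740, a Cys/His-rich C1 domain protein, had 0.976, 0.859 and 0.937 CPM in gpa1-3, against 12.7, 12.5 and 12 CPM in agb1-2 (log2 fold change -3.75 ± 0.44, adjusted p = 3.4e-07). The groups were far apart for these 3 genes, with Col-0 at 12.9 ± 2.5 CPM for AT2G17740 and 10.5 ± 2.14 CPM for EXO70H1 (SD, n = 3 each), both near agb1-2. AT2G44370, another C1 domain protein, had 4.61, 3.63 and 1.94 CPM in gpa1-3, against 21.7, 24.3 and 24 CPM in agb1-2 (log2 fold change -2.71 ± 0.32, adjusted p = 4.6e-07). AT4G03460, an ankyrin repeat protein, had a log2 fold change of -2.07 ± 0.27 (adjusted p = 2.2e-06), and AT5G48430, an aspartyl protease family protein, one of -2.41 ± 0.37 (adjusted p = 2.2e-05).

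Except for GPA1, these falls did not persist in the salt libraries, where salt and elapsed time cannot be told apart. After 2 h in NaCl 1 of the 10 was called lower, and after 24 h 9 of the 10 were called higher in gpa1-3. Over all genes 5.8% were called lower after 2 h and 8.58% higher after 24 h. For WRKY11 the level after 24 h was 139 ± 12.4 CPM in gpa1-3 and 54.9 ± 12.4 CPM in agb1-2 (SD, n = 3 each, log2 fold change 1.35 ± 0.21, adjusted p = 4.5e-05). MLO12 likewise had 178 ± 33.3 CPM in gpa1-3 and 69.7 ± 8.5 CPM in agb1-2 after 24 h (SD, n = 3 each, log2 fold change 1.35 ± 0.23, adjusted p = 1.0e-04). GPA1 was the exception and stayed low, at -2.68 after 2 h and -2.59 after 24 h. The change of the difference over time was called for 9 of the 10 falls and for 5 of the 10 rises, against 7.82% of all genes. These genes were picked for their size at 0 h, which enters that test, so the shares are a description, while the values at 2 h and 24 h come from other libraries. Under tunicamycin 6 of the 10 falls were called lower, against 3.73% of all genes.

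Among genes with at least 10 CPM in a group, the smallest p-values of this change belonged to WRKY27, WRKY11, WRKY17, MLO12, ZIP5 and IOS1. ZIP5, a zinc transporter, had 6.94, 8.3 and 5.74 CPM in gpa1-3, against 23.5, 24.6 and 23.59 CPM in agb1-2 at 0 h (log2 fold change -1.75 ± 0.21, adjusted p = 7.1e-07), and a log2 fold change of 1.46 ± 0.23 after 24 h. IOS1, a leucine-rich repeat kinase of pattern-triggered immunity, had 64.2, 68.4 and 54.4 CPM in gpa1-3, against 185, 197 and 151 CPM in agb1-2 at 0 h (log2 fold change -1.51 ± 0.20, adjusted p = 3.0e-06) and was higher by 1.49 ± 0.20 after 24 h. In both genes the sign at 24 h was the opposite of that at 0 h.

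**Figure D5:**
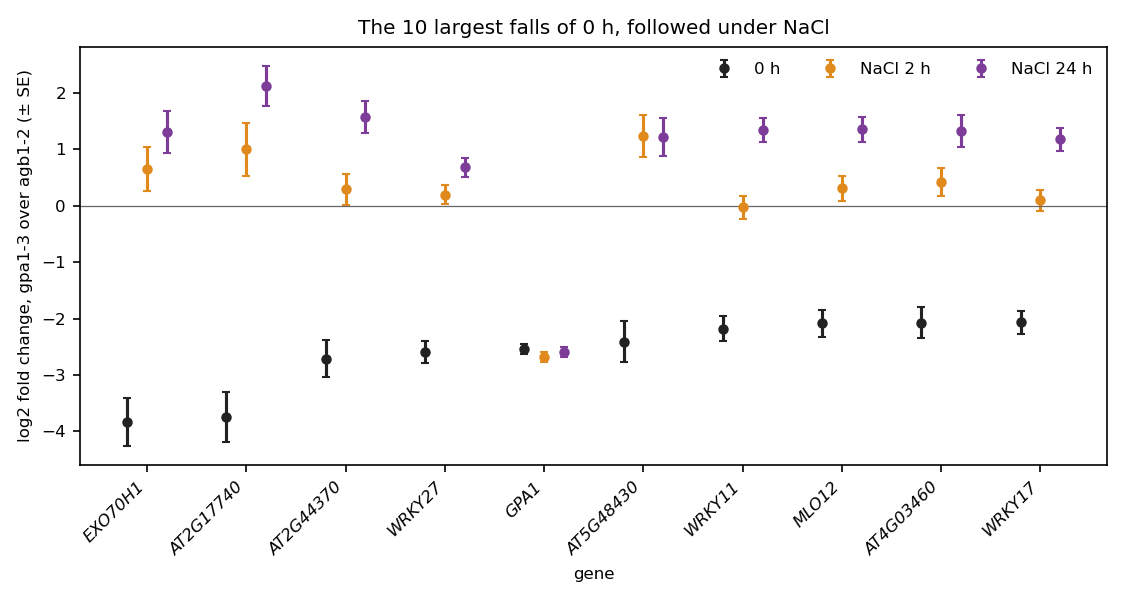
Points show the log2 fold changes of gpa1-3 over agb1-2 (± SE) of the 10 largest falls, with the genes along the horizontal axis. Colours mark 0 h, 2 h and 24 h in 100 mM NaCl, each from the same fit. Those of 9 genes cross from below -2 at 0 h to above 0.6 after 24 h, and GPA1 remains below -2.5.

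Genes of indole glucosinolates and camalexin, defence metabolites, held more calls on the higher side in salt than at 0 h. Of the 18 tested members, 3 were called higher (5 with only the compared groups fitted) and 3 lower at 0 h, 11 higher and 0 lower after 2 h, and 14 higher and 0 lower after 24 h, when the median was 1.14. Over all genes 9.13%, 6.59% and 8.58% were called higher at these times. CYP81F2, a P450 that modifies indole glucosinolates, had 65.1, 57.8 and 69.6 CPM in gpa1-3, against 253, 241 and 187 CPM in agb1-2 at 0 h (log2 fold change -1.83 ± 0.29, adjusted p = 4.0e-05). Its log2 fold change was 1.80 ± 0.31 (adjusted p = 1.5e-04) after 2 h and 1.70 ± 0.30 (adjusted p = 1.5e-04) after 24 h. PEN2, the myrosinase that activates these compounds, had 262, 223 and 204 CPM in gpa1-3, against 510.5, 476 and 377 CPM in agb1-2 at 0 h (log2 fold change -0.98 ± 0.18, adjusted p = 2.1e-04). IGMT1, a methyltransferase of the same branch, had 30.9, 31 and 27.2 CPM in gpa1-3, against 57.5, 66.9 and 54.8 CPM in agb1-2 at 0 h (log2 fold change -1.01 ± 0.19, adjusted p = 3.1e-04). PAD3, the last enzyme of camalexin synthesis, went the other way at 0 h, with 1.79, 2.78 and 1.81 CPM in gpa1-3, against 0.25, 0.528 and 0.13 CPM in agb1-2 (log2 fold change 2.69 ± 0.37, adjusted p = 5.9e-06). After 24 h PAD3 had 0.609, 0.501 and 0.573 CPM in the gpa1-3 libraries and 0 counts in all 3 agb1-2 libraries. Of the 7 tested aliphatic glucosinolate genes 0 were called at 0 h by edgeR, with 3 at an unadjusted p below 0.05, while DESeq2 called 1 and the replicate block 2, all lower. After 2 h in NaCl 0 of these 7 were called higher (1 by DESeq2) and 2 lower, and after 24 h 0 were called in either direction by edgeR or DESeq2, with 3 at an unadjusted p below 0.05.

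Of the 21 tested genes of salicylic acid and pattern-triggered immunity, 1 was called higher and 4 lower at 0 h, 7 higher and 2 lower after 2 h, and 10 higher and 0 lower after 24 h. Over all genes 9.13% were called higher and 7.35% lower at 0 h, 6.59% and 5.8% after 2 h, and 8.58% and 6.95% after 24 h. NHL10, a defence-induced membrane protein, was the 1 called higher at 0 h, with 2.47, 2.03 and 1.06 CPM in gpa1-3, against 0.6, 0.616 and 0.0652 CPM in agb1-2 (log2 fold change 1.96 ± 0.45, adjusted p = 0.0026). Replicate 3 was the lowest library of either genotype for NHL10. The 4 calls on the lower side were 0 without agb1-2 replicate 1 or 2 or gpa1-3 replicate 2, 1 without gpa1-3 replicate 3 and 2 without gpa1-3 replicate 1. WRKY loci also held more calls on the higher side in salt, with 13 called higher and 2 lower after 2 h and 17 higher and 1 lower after 24 h, against the same shares of all genes. Among 33 tested genes of folding in the endoplasmic reticulum and the unfolded protein response, 4 (12.1%) were called higher and 0 lower at 0 h, against 9.13% and 7.35% of all genes. After 2 h in NaCl 0 were called in either direction by edgeR or DESeq2, with 10 at an unadjusted p below 0.05. After 24 h 9 (27.3%) were called higher and 0 lower, and under tunicamycin 7 (21.2%) were called higher and 1 lower, where 8.58% and 5.91% of all genes were called higher. The 4 at 0 h became 13 with only the compared groups fitted and 2 without replicate 1 of either genotype, gpa1-3 replicate 2 or agb1-2 replicate 3.

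Of 25 members of the heat and oxidative stress list 4 (16.0%) were called higher and 0 lower, against 9.13% and 7.35% of all genes. The copper/zinc superoxide dismutases CSD2 and CSD1 and the catalase CAT1 were among them. CSD2, the plastid form, had 463, 428 and 443 CPM in gpa1-3, against 265, 259 and 271 CPM in agb1-2 (log2 fold change 0.75 ± 0.09, adjusted p = 1.3e-06). CSD1, the cytosolic form, had 189.8, 175 and 171 CPM in gpa1-3, against 112, 105 and 113 CPM in agb1-2 (log2 fold change 0.70 ± 0.11, adjusted p = 4.9e-05). CAT1 differed less, at 0.34 ± 0.08 (adjusted p = 0.0023), and none of the 3 genes overlapped between the groups.

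In the iron list 3 of 15 members were called higher and 1 lower, the lower one becoming 3 with only the compared groups fitted. Over all genes 9.13% were called higher and 7.35% lower, which is also the background for the counts of the lists that follow. FER3, an iron-storing ferritin, had 148, 155 and 125 CPM in gpa1-3, against 73.6, 75.6 and 39.8 CPM in agb1-2 (log2 fold change 1.17 ± 0.20, adjusted p = 1.0e-04). Of 21 genes of sugar transport and starvation 4 were called higher (1 or 2 without gpa1-3 replicate 1 or 2 or agb1-2 replicate 1 or 3) and 4 lower. GPT2, a plastid glucose phosphate translocator, had 12, 13.1 and 17.9 CPM in gpa1-3, against 6.4, 6.48 and 5.08 CPM in agb1-2 (log2 fold change 1.23 ± 0.23, adjusted p = 2.8e-04). The sucrose carrier SUC1 had 53.6, 59 and 58.6 CPM in gpa1-3, against 112, 90.7 and 95.7 CPM in agb1-2 (log2 fold change -0.80 ± 0.16, adjusted p = 7.9e-04). SWEET12, a sucrose exporter of the phloem, also fell, with 23, 37 and 31.8 CPM in gpa1-3, against 57.4, 64.6 and 59.2 CPM in agb1-2 (log2 fold change -0.98 ± 0.20, adjusted p = 9.3e-04). Neither direction prevailed in the list, and its named members did not overlap between the groups.

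Ion transport and aquaporins held 3 called higher and 5 lower of 35, the lower ones being 9 with only the compared groups fitted and 3 without gpa1-3 replicate 1 or 2 or agb1-2 replicate 2. The aquaporins were split: PIP2;6 had 635, 647 and 660.0 CPM in gpa1-3, against 463, 441 and 463 CPM in agb1-2 (log2 fold change 0.51 ± 0.09, adjusted p = 1.1e-04), while PIP2;5 had 2.25, 2.86 and 2.5 CPM in gpa1-3, against 4.78, 5.1 and 5.08 CPM in agb1-2 (log2 fold change -0.97 ± 0.19, adjusted p = 4.5e-04). HAK5, a high-affinity potassium transporter, had 3.17, 5.21 and 3.93 CPM in gpa1-3, against 1.68, 1.73 and 1.89 CPM in agb1-2 (log2 fold change 1.23 ± 0.28, adjusted p = 0.0027). Of 16 genes of nitrogen and phosphate 2 were called in each direction. The higher ones became 1 without gpa1-3 replicate 2 and 0 without agb1-2 replicate 2, and the lower ones 1 without gpa1-3 replicate 3. Among the lower ones was SQD2, an enzyme of sulfolipid synthesis (-0.39 ± 0.10, adjusted p = 0.0058). Of 16 root tissue genes 1 was called higher and 3 lower, the lower ones falling to 0 without gpa1-3 replicate 1 and to 1 without agb1-2 replicate 2 or 3. The 1 called higher was CASP1, a scaffold of the Casparian strip, with 3.09, 3.66 and 3.31 CPM in gpa1-3, against 1.35, 1.64 and 2.02 CPM in agb1-2 (log2 fold change 1.05 ± 0.22, adjusted p = 0.0013).

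Cell wall growth genes were called in both directions, with 3 of 27 higher (0 without agb1-2 replicate 1, and 1 without agb1-2 replicate 2 or 3 or gpa1-3 replicate 3) and 4 lower. XTH9, a xyloglucan-modifying enzyme of growing cells, had 6.4, 7.21 and 7.93 CPM in gpa1-3, against 13, 15.4 and 18.7 CPM in agb1-2 (log2 fold change -1.13 ± 0.19, adjusted p = 6.3e-05). The 20 tested flavonoid and phenylpropanoid genes held 4 higher, which became 1 or 2 whichever library was left out, and 3 lower, which became 1 without agb1-2 replicate 1. TT4, the chalcone synthase that opens the flavonoid branch, had 6.1, 5.67 and 6.12 CPM in gpa1-3, against 16.5, 13.1 and 9.25 CPM in agb1-2 (log2 fold change -1.14 ± 0.24, adjusted p = 0.0013). PAL4, a phenylalanine ammonia lyase upstream of it, had 1.46, 1.6 and 1.12 CPM in gpa1-3, against 0.45, 0.675 and 0.326 CPM in agb1-2 (log2 fold change 1.48 ± 0.38, adjusted p = 0.0067). The 2 enzymes thus moved in opposite directions, each without overlap of the libraries. Photosynthesis genes were little changed, with 1 of 40 called, LHCB1.1, an antenna protein from a group of near-identical genes whose counts may be split uncertainly (0.59 ± 0.15, adjusted p = 0.0074). Its call was lost without gpa1-3 replicate 1 (adjusted p = 0.1). Of the 14 chlorophyll synthesis genes 1 was called higher (0 without agb1-2 replicate 3) and 3 lower (1 without agb1-2 replicate 1). Of the 21 clock genes 2 were called higher, which became 4 with the replicate block and 1 without replicate 1 or 3 of gpa1-3 or replicate 2 or 3 of agb1-2. The 1 clock gene called lower became 0 without gpa1-3 replicate 1 or agb1-2 replicate 3.

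The libraries of the other treatments allowed the calls at 0 h to be looked up in seedlings they were not based on, although 1 fit shared its estimate of the spread over all 44 libraries. After 2 h in NaCl 2583 genes (12.4%) were called, and 961 genes were called in the same direction at both times, which is 28.0% of the calls at 0 h and 37.2% of those at 2 h. A further 73 were called in the opposite direction. After 24 h 3239 genes (15.5%) were called, of which 647 had the same direction as at 0 h (18.8% of the calls at 0 h and 20% of those at 24 h) and 257 the opposite one. Of the opposite ones 226 were genes lower in gpa1-3 at 0 h, 14.7% of all 1534 such genes, nearly as many as the 227 that stayed lower (14.8%). Unlike at 0 h, each gpa1-3 library at 24 h was most similar to a library of another genotype. Replicates 1 and 3 were nearest to xlg1,2,3 libraries and replicate 2 to an agb1-2 library, all at 24 h. Under tunicamycin, with 2 libraries a group, 2011 genes (9.64%) were called, and 962 of them shared the direction seen at 0 h (28.0% of the calls at 0 h and 47.8% of those under tunicamycin), with 14 opposite. The count under tunicamycin was 467 with only the compared groups fitted, and 641 without gpa1-3 replicate 2 and 750 without agb1-2 replicate 2. The shares given use the fit over all groups.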

How the data were processed

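RNA from whole Arabidopsis seedlings was sequenced after RNeasy extraction and a standard Illumina library preparation, per the labels' protocols. The authors deposited 1 table of expected counts (estimated counts, of which 1.351% of values are not whole) for 32853 genes in 44 libraries, and these were rounded to whole numbers. The submitters' processing notes name STAR and TAIR10, with no version. The counting tool and the strand setting were not given in the sources used here. Columns were matched to samples by title. Gene names, coordinates and promoters came from the TAIR10.1 RefSeq annotation, which held 32182 of the 32853 loci.

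The test was edgeR 4.0.16 (R 4.3.3, limma 3.58.1) quasi-likelihood F-test with a mean for each of 16 groups over 44 libraries, TMM scaling, filterByExpr (minimum count 10, minimum total 15) and Benjamini-Hochberg adjustment, calling genes below 0.05. The change of the difference under salt was tested jointly at 2 h and 24 h. Library sums were compared by an exact permutation test over samples. On simulated data for the 0 h comparison (20749 genes), 41 of 67 genes changed 1.5-fold, 59 of 67 changed 2-fold and 65 of 66 changed 4-fold were called, as were 10 unchanged genes.

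Same-numbered libraries of the 2 genotypes deviated together at 0 h (correlation of deviations 0.165 to 0.186, other pairs -0.158 to -0.00719). The main fit nevertheless held no term for replicate number, which entered only as the replicate block among the alternatives. Replicates were not duplicates (chi-square per degree of freedom 7.88 to 16.8). Alternatives were DESeq2 1.42.0, its size factors, no low-count filter, a replicate block, only the compared groups, and each library left out, and, chosen after the data were seen, replicates 1 and 2 only.

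The comparison and the 24 gene lists (558 members, 503 tested) were chosen with earlier results of these data known. Genes named are the G-protein list, the 10 largest rises and falls (at least 10 CPM in the higher group, no overlap of libraries), members among the 4 smallest p-values of a list, and the 6 smallest p-values of the change under salt. The remaining stomatal lineage members were added after their values were seen. The result for 1 gene is not reported here.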

Additional observations from a re-analysis of the deposited data

Results flagged for a closer look

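The difference between gpa1-3 and agb1-2 itself changed between 0 h and the salt time points for 35 of the genes named, by the joint edgeR test of the change at 2 h and 24 h (adjusted over all genes tested). Genes picked for their size at 0 h enter this test with that size, and no cause was tested.

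Among the G-protein genes the adjusted p was 3.6e-04 for AGB1, which was not called at 0 h and was higher in gpa1-3 after 2 h and 24 h, and 1.8e-04 for XLG3, which was lower at 0 h and higher after 24 h (0.35). Of the stomatal genes, SDD1 (0.0058) was called at 0 h and not at 24 h, and BASL (0.042) was furthest apart after 2 h (-3.76).

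Hormone genes that were higher in gpa1-3 at 0 h and differed less after 2 h in salt were JAZ9 (6.1e-07), JAZ3 (1.4e-04), JAZ2 (0.029), RD22 (3.3e-06), RD29A (8.5e-04), KIN2 (0.042) and RAP2.6 (5.1e-08). GH3.5 (0.0079) was called at 2 h and not at 24 h, and GH3.3 (3.4e-04) was lower in gpa1-3 by 24 h.

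Among the largest rises, AT4G36430 (0.0020) and GRP5 (0.023) narrowed, LTP2 (0.015) was not called at 2 h but was at 24 h, and SESA5 (0.035) had a negative fold at 2 h.

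The falls whose sign turned by 24 h were WRKY27 (6.8e-10), WRKY11 (1.8e-08), WRKY17 (1.8e-08), EXO70H1 (2.1e-07), MLO12 (5.1e-08), AT2G17740 (5.1e-08), AT2G44370 (1.2e-07), AT4G03460 (7.1e-07), AT5G48430 (3.7e-06), ZIP5 (3.8e-08), IOS1 (5.1e-08), CYP81F2 (1.6e-07), PEN2 (3.3e-06) and IGMT1 (4.2e-05).

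Smaller changes of the difference were found for CSD2 (0.015), FER3 (0.018), SUC1 (0.0037) and PIP2;6 (0.016), all of which were called at 0 h and not at 24 h.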

How the results depend on the processing

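With a replicate block the counts of called genes were 3800 at 0 h, 2845 after 2 h, 3590 after 24 h, 2248 under tunicamycin and 1961 for the change, and the 2 h numbers did not pair the libraries (-0.0497 to -0.00352). Among the gene lists at 0 h the block moved 3 counts by over 1.5 times, those of seed storage, clock and aliphatic glucosinolate genes.

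With only the compared groups fitted, 1779 genes were called after 24 h and 467 under tunicamycin. Replicates 1 and 2 alone gave 1481 at 0 h, 1677 after 2 h, 1347 after 24 h and 684 for the change. Leaving out 1 library each gave 2334 to 2492 at 0 h, 1423 to 2033 after 2 h, 1990 to 3139 after 24 h, 641 to 1443 under tunicamycin and 1171 to 1881 for the change. The cause was not tested beyond the smaller number of libraries. AGB1 turned sign at 0 h without agb1-2 replicate 3 (0.075, against -0.10 at the lowest) and with replicates 1 and 2 alone (0.085), never called. For single genes, 868 values kept direction and side of the threshold, 28 lost the call, 1 gained it and 2 changed sign.

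Lists at 0 h over the libraries left out had 8 to 10 stomatal and 5 to 8 cell division members called lower, and 11 to 13 abscisic acid, 4 to 10 jasmonate and 0 to 5 seed storage members called higher. Depth limits the weak genes most, since replicate 3 held 14135238 and 15302243 counts.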

Other observations

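Over all genes tested 16.5% were called at 0 h. Within 500 kb on each side of GPA1, 31 of 179 tested genes were called (17.3%), and within 500 kb of AGB1 38 of 238 (16.0%). Within 100 kb on each side the shares were higher, 25.6% of 39 genes around GPA1 and 21.6% of 51 genes around AGB1.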
